A study of Mus musculus with 9 samples.

Results

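The genes described are the metalloproteases and their tissue inhibitors in mouse mammary epithelial aggregates. They were chosen by name as every gene symbol of the form Mmp, Timp, Adam or Adamts followed by a number and at most 1 letter. This gave 80 of the 54456 gene names in the count table, of which 23 were Mmp, 4 Timp, 34 Adam and 19 Adamts genes. Of the 80, 45 were abundant enough to be tested, among 18051 genes in all, 23 had counts but stayed below the filter with at most 74 counts over all libraries, and 12 had no count in any library. Those 12 were 10 Adam genes and the interstitial collagenase genes Mmp1a and Mmp1b.

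Wild-type mouse mammary epithelial cells were separated by flow cytometry into luminal cells, which line the duct, and basal cells, the contractile outer layer, and were then reassembled. The groups were mixed aggregates, a 50% mixture of both cell types, aggregates of luminal cells only, and aggregates of basal cells only, with 3 libraries each. All aggregates had been set in 80% Matrigel about 100 µm from heparin sulfate beads of 100 to 150 µm that had been soaked in FGF10, an epithelial growth factor, at 100 µg/mL. The label for treatment gives 56 h of migration and the titles give 55 h, and every group carried the FGF10 bead, so no comparison measures a response to FGF10. Matrigel is itself a basement membrane extract that holds substrates of these enzymes.

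Matrix metalloproteinases (MMPs) are zinc-dependent enzymes, secreted or anchored in the membrane, that cut collagens, laminins and other matrix proteins, and they are made as inactive zymogens. ADAMs are membrane-bound relatives, several of which release growth factors and receptors from the cell surface, and ADAMTS enzymes are secreted relatives that cut proteoglycans such as versican or process procollagens. TIMPs bind the active site of these enzymes, and in the mammary gland the balance of MMPs and TIMPs is known for its part in branching of the ducts and in involution after lactation.

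The libraries held 15585324 to 19164405 counts, so that 3 counts corresponded to 0.152 to 0.186 CPM (counts scaled to library size). These limits cover counting error only, because reads carried no molecular identifiers. Levels within a gene are given in CPM, with TMM scaling (a trimmed mean of ratios between libraries). Levels between genes are given in TPM, which divide by exon length and carry no TMM scaling. Whether replicate libraries stem from different animals is not stated in the labels, so the p-values cover only the spread between these libraries. All 8 basal markers were lower and all 9 luminal markers higher in luminal than in basal aggregates by edgeR's quasi-likelihood test. The prefixes of the column names formed 3 series that cut across the groups, with mixed 1, 2 and 3 and basal 2 in the first, luminal 1 and basal 1 and 3 in the second, and luminal 2 and 3 in the last. Across genes, basal 2 had r = 0.927 with basal 1 and 0.936 with basal 3, against 0.986 between basal 1 and 3. Mixed libraries, all of 1 prefix, had r = 0.922 to 0.948 with each other. Luminal 1 had r = 0.969 with luminal 2 and 0.970 with luminal 3, against 0.966 between luminal 2 and 3, which share a prefix. The antigen presentation gene Cd74 stood at 26.6, 26.2 and 36.3 CPM in mixed libraries, 1.02, 1.19 and 0.0621 CPM in luminal libraries and 1.87, 27.3 and 0.631 CPM in basal libraries. It was thus high in the mixed libraries and basal 2, which share a prefix, and low in all others. No prefix was shared by mixed and luminal libraries, so prefix and group cannot be told apart in that contrast except through basal libraries.

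On the length-scaled level, the TIMPs and a few membrane proteases dominated. Timp2, an inhibitor that also helps MMP14 to activate pro-MMP2, led mixed aggregates with 162 ± 8.66 TPM and luminal aggregates with 380 ± 56.5 TPM, and was second in basal aggregates with 115 ± 29.7 TPM (SD, n = 3 each). Mmp14, the membrane-anchored collagenase MT1-MMP, led basal aggregates with 150 ± 18.8 TPM. The order in mixed aggregates was Timp2, Timp3, Mmp14, Adam10 and Timp1. In luminal aggregates it was Timp2, Mmp14, Adam10, Timp3 and Adam9, and in basal aggregates Mmp14, Timp2, Adamts1, Adam10 and Timp3. Neighbours among these 5 overlapped in their library values, except Timp3 with Mmp14 and Adam10 with Timp1 in mixed aggregates and Timp2 with Mmp14 in luminal aggregates. The same 5 genes led each group when any 1 library was left out.

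Summed over the family, TIMP transcripts amounted to 359, 405 and 396 TPM in mixed libraries, 615, 475 and 522 TPM in luminal libraries and 263, 151 and 240 TPM in basal libraries. In TPM the 3 groups did not overlap. In CPM with TMM scaling, mixed and luminal libraries did overlap, with TIMP sums of 904 to 1060 and 806 to 1090. Basal libraries lay below both, at 279 to 415 CPM. MMP transcripts amounted to 167, 163 and 135 TPM in mixed libraries, 183, 160 and 234 TPM in luminal libraries and 318, 206 and 265 TPM in basal libraries. The ratio of the TIMP sum to the MMP sum was 2.15, 2.48 and 2.93 in mixed libraries, 3.36, 2.97 and 2.23 in luminal libraries and 0.829, 0.733 and 0.904 in basal libraries. TIMP transcripts thus outnumbered MMP transcripts in every mixed and luminal library and in no basal library. ADAMTS transcripts summed to 55.7, 44.4 and 66.6 TPM in mixed libraries, 40.7, 38.3 and 56.4 TPM in luminal libraries and 223, 90.7 and 172 TPM in basal libraries, with the basal values above all others. ADAM sums overlapped, at 179 to 204 TPM in mixed, 178 to 387 TPM in luminal and 138 to 270 TPM in basal libraries. These sums are given as a description and were not tested.

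**Figure D1:**
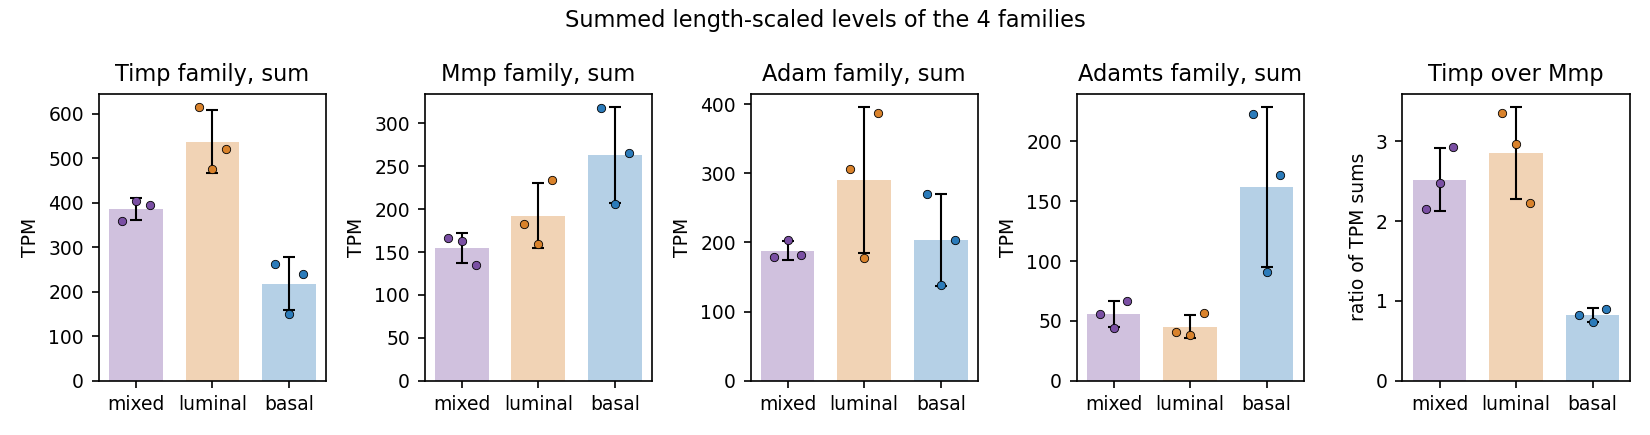
Summed TPM (vertical axes) of the Timp, Mmp, Adam and Adamts genes, and the ratio of the Timp to the Mmp sum, in mixed, luminal and basal aggregates. Points are libraries, bars the mean and error bars the SD (n = 3). The ratio was 2.15 to 2.93 in mixed, 2.23 to 3.36 in luminal and 0.733 to 0.904 in basal libraries.

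In luminal against basal aggregates, 19 of the 45 tested members were called at an adjusted p under 0.05, or 42.2%, against 27.1% of all tested genes. Of these 6 were higher and 13 lower in luminal aggregates (12.8% and 14.4% of all genes), and the median log2 difference was -0.89 over the members and -0.02 over all genes. In mixed against basal aggregates 15 members were called (33.3%, against 13.7% of all genes), 6 higher and 9 lower (6.39% and 7.33% of all genes), with medians of -0.50 and -0.07. In mixed against luminal aggregates 16 were called (35.6%, against 29.4% of all genes), 12 higher and 4 lower (15.2% and 14.2% of all genes), with medians of 0.40 and -0.05. The share of members called was thus near the background between mixed and luminal aggregates. These 3 contrasts share libraries and are not independent of each other. In bulk RNA, fewer cells of a type and less RNA per cell cannot be told apart.

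With the column-name series as a term in the fit, 15 members were called between luminal and basal (13.9% of all genes), 6 between mixed and basal (4.73% of all genes) and 1, Adam12, between mixed and luminal aggregates (2.72% of all genes). Between luminal and basal aggregates the calls of Adam10, Adam19, Mmp3, Mmp10 and Mmp15 ended in that fit and Adam8 gained one (-2.52, adjusted p = 0.033). Between mixed and basal aggregates Adam12, Adamts8, Adamts9, Adamts18, Timp2 and Timp3 were called, in a comparison that has basal 2 as its only basal library of the mixed prefix. Without basal 2 the counts were 19, 17 and 18, against 24.4%, 27.0% and 35.7% of all genes. The count between mixed and basal aggregates was 9 without basal 1 and 9 without basal 3, against 6.24% and 5.09% of all genes.

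**Figure D2:**
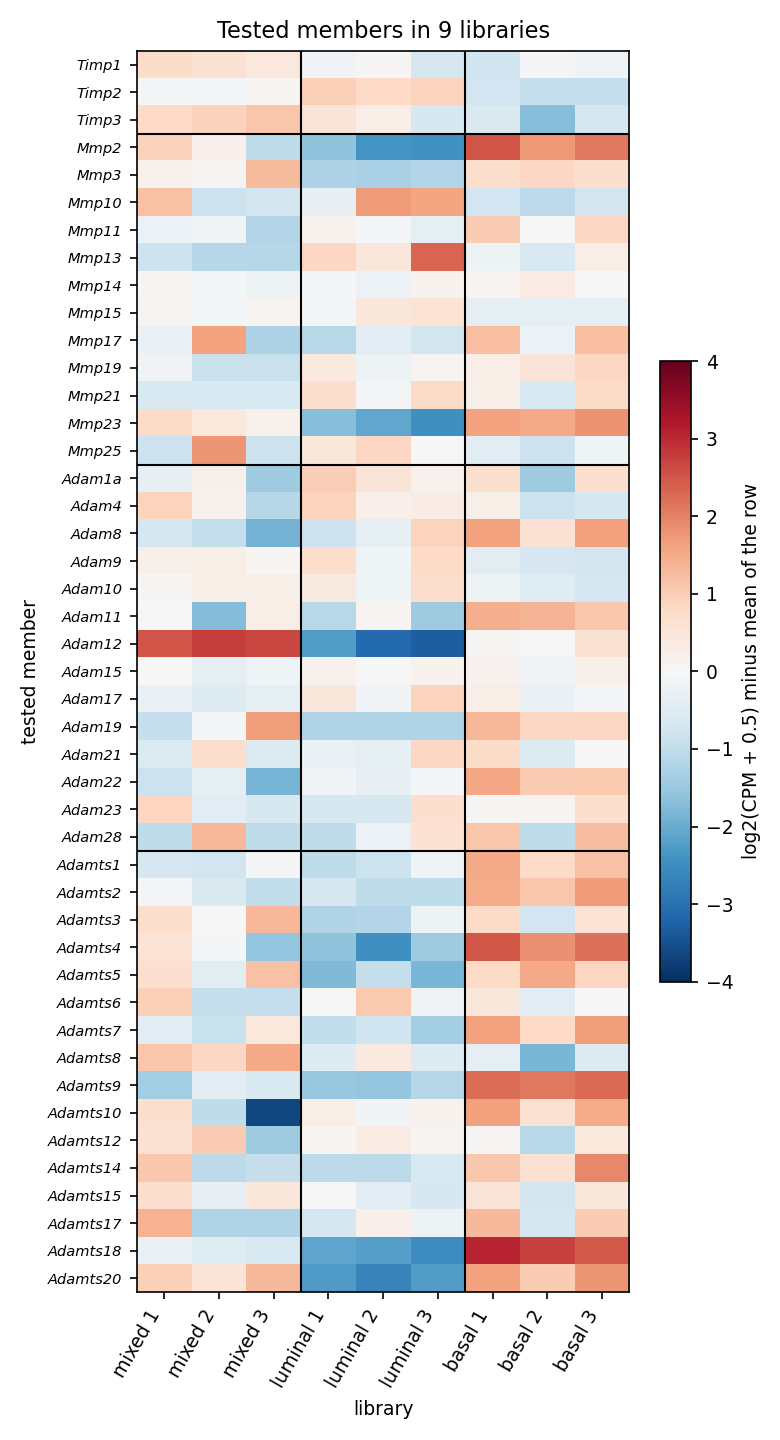
The 45 tested members (rows, in blocks of Timp, Mmp, Adam and Adamts genes) in the 9 libraries (columns). Colour is log2(CPM + 0.5) minus the mean of the row, red above and blue below it. Adamts18, Adamts9, Adamts4, Mmp2 and Mmp23 are red in the basal libraries, and Adam12 is red in the mixed libraries.

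Of the 3 tested TIMPs, all were called higher in mixed than in basal aggregates and 2, Timp2 and Timp3, in luminal than in basal aggregates. Among all tested genes, 6.39% were higher in the first of these contrasts and 12.8% in the second. The Timp1 call ended when most single libraries were left out. Timp2 stood at 302, 298 and 327 CPM in mixed libraries, 606, 540 and 581 CPM in luminal libraries and 182, 159 and 165 CPM in basal libraries. The 3 groups were fully separate, with mixed libraries in the middle. Timp2 was higher in luminal than in basal aggregates by 1.77 ± 0.15 on the log2 scale (SE, adjusted p = 5.8e-06) and higher in mixed than in basal aggregates by 0.87 ± 0.15 (adjusted p = 0.0032). The log2 difference of mixed against luminal aggregates was -0.90 ± 0.15 (adjusted p = 0.0014), and it was -0.85 with adjusted p = 0.14 in the fit with the column-name series.

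Timp3, a matrix-bound inhibitor that also acts on ADAM17 and ADAMTS enzymes, was highest in mixed aggregates, with 571, 622 and 706 CPM, against 467, 394 and 212 CPM in luminal libraries and 222, 100 and 206 CPM in basal libraries. Every mixed library lay above every other library, and luminal 3 lay below basal 1. The log2 difference was 1.84 ± 0.33 in mixed against basal (adjusted p = 0.0046), 1.02 ± 0.32 in luminal against basal (adjusted p = 0.036) and 0.82 ± 0.32 in mixed against luminal aggregates (adjusted p = 0.075). The call between luminal and basal aggregates ended when any of mixed 1 or 2, luminal 1 or 2, or basal 2 or 3 was left out, with adjusted p of 0.052 to 0.14. Of its exon bases, 21.3% are shared with Syn3, and counts were made without strand.

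Timp1, a secreted inhibitor that is often induced with the MMPs, stood at 31.4, 29.3 and 25.2 CPM in mixed libraries, 17.2, 19.7 and 11.7 CPM in luminal libraries and 10.7, 18.3 and 16.7 CPM in basal libraries. All mixed libraries were above all others, and luminal and basal libraries overlapped. The log2 difference was 0.91 ± 0.27 in mixed against basal aggregates (adjusted p = 0.046) and 0.82 ± 0.27 in mixed against luminal aggregates (adjusted p = 0.04). Both calls ended in the fit with the column-name series (0.65, adjusted p = 0.45, and 0.32, adjusted p = 0.92). The call against basal ended without any 1 library other than luminal 3 or basal 2 (adjusted p of 0.055 to 0.16). The call against luminal ended without any 1 mixed library, luminal 1, luminal 3 or basal 3 (adjusted p of 0.056 to 0.15). Timp1 differed by 0.09 ± 0.27 between luminal and basal aggregates (adjusted p = 0.85). Timp4 had at most 19 counts in any library and was not tested.

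Among the membrane-type MMPs no difference of Mmp14 passed the test. Mmp14 stood at 324, 300 and 273 CPM in mixed libraries, 297, 267 and 344 CPM in luminal libraries and 334, 393 and 312 CPM in basal libraries, and the groups overlapped. Its log2 difference was -0.20 ± 0.17 in luminal against basal, -0.21 ± 0.17 in mixed against basal and -0.02 ± 0.17 in mixed against luminal aggregates (adjusted p = 0.44, 0.43 and 0.95). It made up 66.2% of the MMP sum in mixed, 68.1% in luminal and 57.2% in basal aggregates. Mmp15, a second membrane-type MMP, stood at 76.8, 66.4 and 76.0 CPM in mixed libraries, 68.2, 97.1 and 103 CPM in luminal libraries and 55.3, 54.3 and 54.8 CPM in basal libraries. It was higher in luminal than in basal aggregates by 0.71 ± 0.18 (adjusted p = 0.011), with 0.59 and adjusted p = 0.053 without luminal 3 and 0.31 with adjusted p = 0.42 in the fit with the column-name series.

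The secreted gelatinase gene Mmp2, whose product cuts denatured collagen and collagen IV and whose zymogen MMP14 activates, stood at 22.1, 13.2 and 5.44 CPM in mixed libraries, 3.40, 1.78 and 1.74 CPM in luminal libraries and 68.9, 39.1 and 51.7 CPM in basal libraries. The groups did not overlap, and mixed libraries lay between the others. On the log2 scale the difference was -4.52 ± 0.51 in luminal against basal (adjusted p = 4.8e-05), -1.97 ± 0.44 in mixed against basal (adjusted p = 0.015) and 2.55 ± 0.48 in mixed against luminal aggregates (adjusted p = 0.0032). The call against basal aggregates in mixed aggregates ended without basal 1 (-1.75, adjusted p = 0.059). Both mixed calls ended with the column-name series as a term (-1.53, adjusted p = 0.16, and 2.62, adjusted p = 0.26). The other gelatinase, Mmp9, had 10, 4 and 3 counts in mixed libraries, 0, 39 and 14 in luminal libraries and 0, 0 and 4 in basal libraries, and was not tested.

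Mmp23, a membrane-bound MMP of unusual structure, followed Mmp2, with 9.95, 7.74 and 6.47 CPM in mixed libraries, 1.40, 0.948 and 0.621 CPM in luminal libraries and 18.3, 17.0 and 21.1 CPM in basal libraries. Again no group overlapped another. Mmp23 gave a log2 difference of -4.23 ± 0.38 in luminal against basal (adjusted p = 9.3e-06), -1.22 ± 0.33 in mixed against basal (adjusted p = 0.032) and 3.01 ± 0.37 in mixed against luminal aggregates (adjusted p = 0.0002). The call between mixed and basal aggregates ended without mixed 2, mixed 3, basal 1 or basal 3, with adjusted p of 0.075 to 0.14. Both mixed calls of Mmp23 ended with the column-name series as a term (-1.07, adjusted p = 0.19, and 2.73, adjusted p = 0.083).

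Fibroblasts also express Mmp2 and Mmp3, and markers of fibroblasts were measured beside them. Of 7 tested fibroblast markers, 3 were lower and none higher in luminal than in basal aggregates, and 3 were higher in mixed than in luminal aggregates. Among all tested genes, 14.4% were lower in the first of these contrasts and 15.2% higher in the second. Over 8 markers the summed level was 238 to 334 CPM in mixed, 50.3 to 216 CPM in luminal and 223 to 339 CPM in basal libraries. Postn made up much of it, at 190, 283 and 195 CPM in mixed, 205, 43.5 and 76.6 in luminal and 219, 70.3 and 184 in basal libraries. Postn, Dcn, Pdgfra and Col1a1 had counts in every luminal library and were not called between luminal and basal aggregates. The 3 that were called there were Col1a2, Col3a1 and Fbln1. Fbln1 stood at 32.4, 29.1 and 33.1 CPM in mixed, 0.647, 0.237 and 1.18 in luminal and 90.3, 131 and 95.8 in basal libraries. It was also lower in mixed than in basal aggregates. Col1a2 had no count in any luminal library and 4.68 to 5.72 CPM in basal libraries, and Lum, a defining marker, was at most 1.11 CPM in any library. The part of fibroblast transcripts in the differences of Mmp2 and Mmp3 was not tested. Leukocyte markers summed to 44.5 to 67.7 CPM in mixed, 22.3 to 53.8 CPM in luminal and 4.13 to 49.2 CPM in basal libraries, the last being basal 2. Of 5 tested leukocyte markers, Lyz2, Cd74 and Fcer1g were higher and Cd68 lower in mixed than in luminal aggregates (adjusted p = 0.0097, 0.0097, 0.0064 and 0.0012), and none passed between mixed and basal aggregates. The macrophage gene Lyz2 stood at 8.29, 33.6 and 13.3 CPM in mixed libraries, 0, 0.0593 and 0.124 CPM in luminal libraries and 0.152, 15.4 and 0.115 CPM in basal libraries. Cd68 stood at 5.83, 3.81 and 7.35 CPM in mixed libraries and at 24.8, 20.9 and 50.1 CPM in luminal libraries, where it makes up most of the sum. Ptprc, expressed by leukocytes in general, was at most 0.743 CPM in any library. The summed level of 5 endothelial markers was 7.93 to 13.9 CPM in mixed, 3.56 to 5.90 CPM in luminal and 7.71 to 10.8 CPM in basal libraries. The part of these cells in the differences of the members was likewise not tested.

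The stromelysin and collagenase genes of mouse chromosome 9 were low. 10 Mmp genes lie together there at 7272514 to 7699586 (mm39), in the order Mmp13, Mmp12, Mmp1b, Mmp3, Mmp1a, Mmp10, Mmp8, Mmp27, Mmp20 and Mmp7, within 427 kb. Only Mmp3, Mmp10 and Mmp13 passed the filter, and their promoters are shown. Mmp3 and Mmp10 were called in opposite directions between luminal and basal aggregates. Both calls rest on few counts and ended with the column-name series as a term. The relation of the motifs to the levels was not tested. The sequences are from RefSeq on GRCm38.p6, a different build from that of the counts, and run from 250 bases before to 50 after the annotated start. Capitals mark the AP-1 motif TGAGTCA, read as TGACTCA on the other strand, and the TATA motif TATAAA.

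Mmp3, chr9:7445572-7445871, plus strand: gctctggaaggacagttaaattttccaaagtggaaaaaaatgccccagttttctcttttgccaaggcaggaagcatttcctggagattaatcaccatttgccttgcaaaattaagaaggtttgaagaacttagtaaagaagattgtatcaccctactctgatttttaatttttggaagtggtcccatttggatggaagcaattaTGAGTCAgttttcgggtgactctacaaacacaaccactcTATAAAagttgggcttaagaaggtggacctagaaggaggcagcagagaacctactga
Mmp10, chr9:7502092-7502391, plus strand: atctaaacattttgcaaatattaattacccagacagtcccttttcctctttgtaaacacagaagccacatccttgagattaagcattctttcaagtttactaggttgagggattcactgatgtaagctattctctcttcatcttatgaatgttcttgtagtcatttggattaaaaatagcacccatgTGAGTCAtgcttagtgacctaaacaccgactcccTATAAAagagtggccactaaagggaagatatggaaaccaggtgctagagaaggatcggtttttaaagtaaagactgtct
Mmp13, chr9:7272264-7272563, plus strand: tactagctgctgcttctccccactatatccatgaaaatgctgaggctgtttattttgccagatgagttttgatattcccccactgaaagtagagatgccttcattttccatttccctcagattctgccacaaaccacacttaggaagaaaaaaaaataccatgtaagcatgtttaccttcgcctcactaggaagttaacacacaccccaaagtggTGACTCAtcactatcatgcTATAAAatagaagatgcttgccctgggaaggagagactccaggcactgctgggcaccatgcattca

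Both motifs were searched on both strands in the promoters of 50 members with a RefSeq entry. The AP-1 letters began at -46 from the start in Mmp3, at -63 in Mmp10 and at -35 in Mmp13. They were found in 7 of the 10 genes of the cluster and in 3 other members, Adam19, Adam1b and Adam29. Of all 27025 gene symbols with a promoter, 5.95% held them. The TATA letters were found in 9 of the 10 genes of the cluster, against 15.7% of all gene symbols with a promoter. They were also found in 6 other members, Adam29, Adam34l, Adam6a, Adam6b, Adamts1 and Mmp21. These matches are a description of the letters only.

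Mmp3, stromelysin-1, which cuts many matrix proteins and activates other pro-MMPs, stood at 1.54, 1.48 and 3.86 CPM in mixed libraries, 0.270, 0.237 and 0.311 CPM in luminal libraries and 2.48, 2.75 and 2.41 CPM in basal libraries. All luminal libraries lay below all others, and mixed and basal libraries overlapped. On the log2 scale Mmp3 differed by -3.19 ± 0.70 in luminal against basal (adjusted p = 0.0053) and 3.04 ± 0.70 in mixed against luminal aggregates (adjusted p = 0.0088). With the column-name series as a term these became -3.15 (adjusted p = 0.14) and 2.89 (adjusted p = 0.52).

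Mmp10, stromelysin-2, went the other way between luminal and basal aggregates, with 1.83, 0.0615 and 0.109 CPM in mixed libraries, 0.323, 2.84 and 2.55 CPM in luminal libraries and 0.101, 0 and 0.115 CPM in basal libraries. Its log2 difference of 4.59 ± 1.55 in luminal against basal aggregates (adjusted p = 0.046) rests on 6, 48 and 41 counts in luminal libraries against 2, 0 and 2 in basal libraries. That call ended without luminal 2, luminal 3 or any single basal library (adjusted p of 0.1 to 0.12), and with the column-name series as a term (1.52, adjusted p = 0.74). Mmp13, collagenase-3, had 2, 0 and 0 counts in mixed libraries, 27, 17 and 81 counts in luminal libraries and 9, 4 and 14 counts in basal libraries. It was lower in mixed than in luminal aggregates (adjusted p = 0.0091, and 0.056 without luminal 3), and luminal and basal libraries, which did not overlap, did not pass (adjusted p = 0.13). The call of Mmp13 ended with the column-name series as a term (-3.53, adjusted p = 0.63). Mmp11, stromelysin-3, stood at 3.48 to 7.62 CPM in mixed, 6.33 to 9.49 CPM in luminal and 8.59 to 17.6 CPM in basal libraries and passed in no contrast. Mmp21, named after its values were seen, had no count in mixed libraries and 14, 4 and 13 counts in luminal libraries. That is at least 3.47-fold lower when 3 counts per library are taken as the floor (adjusted p = 0.041). Basal libraries had 8, 0 and 14 Mmp21 counts, with none in basal 2, which shares the mixed prefix. With the column-name series as a term Mmp21 was not called.

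Every ADAMTS gene that was called between the unmixed aggregates was lower in luminal ones. Of 16 tested members 8 were lower and none higher in luminal aggregates relative to basal ones, 6 were lower and 1 higher in mixed aggregates relative to basal ones, and 6 were higher and none lower in mixed than in luminal aggregates. Over all genes 14.4% were lower in the first contrast, 7.33% lower in the second and 15.2% higher in the last, and the 37.5% of ADAMTS genes called in the last stand beside 29.4% of all genes called there. The median log2 differences were -2.19, -1.23 and 0.84. Of the 7 proteoglycan-cleaving members, 5 were lower in luminal than in basal aggregates.

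Adamts1, which cuts versican and aggrecan and was the most abundant ADAMTS gene in all groups, stood at 49.5, 46.5 and 77.2 CPM in mixed libraries, 39.1, 43.4 and 69.9 CPM in luminal libraries and 229, 139 and 179 CPM in basal libraries. Mixed and luminal libraries overlapped and lay below all basal libraries. The log2 difference was -1.84 ± 0.28 in luminal against basal (adjusted p = 0.00051) and -1.66 ± 0.28 in mixed against basal aggregates (adjusted p = 0.0034), and the second became -1.27 (adjusted p = 0.062) with the column-name series as a term. Adamts9, a versican-cleaving enzyme, had the same pattern, with 1.43, 3.32 and 2.83 CPM in mixed libraries, 1.29, 1.24 and 1.80 CPM in luminal libraries and 23.5, 21.3 and 23.7 CPM in basal libraries. It differed by -3.97 ± 0.39 in luminal against basal (adjusted p = 1.6e-05) and by -3.17 ± 0.37 in mixed against basal aggregates (adjusted p = 0.00031). Of its exon bases 12% are shared with other gene names.

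Adamts18, a member with a known part in epithelial branching in mice, showed the lowest luminal level relative to basal among the members with counts in both groups. It stood at 1.89, 1.54 and 1.36 CPM in mixed libraries, 0.162, 0.119 and 0 CPM in luminal libraries and 23.2, 18.4 and 15.2 CPM in basal libraries. The groups did not overlap, and mixed libraries lay between the others. Its log2 difference was -7.52 ± 0.61 in luminal against basal (adjusted p = 4.5e-06), -3.57 ± 0.47 in mixed against basal (adjusted p = 0.00066) and 3.95 ± 0.60 in mixed against luminal aggregates (adjusted p = 0.00089). The last was 3.31 with adjusted p = 0.2 with the column-name series as a term. Luminal libraries held 3, 2 and 0 counts of Adamts18, at or below the floor of 3 counts, so the size of both luminal differences is uncertain.

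Adamts4, an aggrecanase, stood at 5.89, 3.75 and 0.979 CPM in mixed libraries, 0.916, 0.296 and 1.12 CPM in luminal libraries and 23.7, 15.1 and 19.6 CPM in basal libraries. It differed by -4.64 ± 0.67 in luminal against basal (adjusted p = 0.0003) and by -2.46 ± 0.59 in mixed against basal aggregates (adjusted p = 0.019). In mixed against luminal aggregates, where mixed 3 lay within the luminal range, it differed by 2.18 ± 0.63 (adjusted p = 0.024). The call of mixed against basal ended without mixed 2, basal 1 or basal 3 (adjusted p of 0.054 to 0.072), and that of mixed against luminal without mixed 1, mixed 2, luminal 1 or luminal 2 (adjusted p of 0.051 to 0.093). Both mixed calls of Adamts4 ended with the column-name series as a term (-2.10, adjusted p = 0.18, and 2.46, adjusted p = 0.53). Adamts2, a procollagen N-proteinase, and Adamts7, which cuts COMP, were lower in luminal than in basal aggregates by log2 differences of -2.57 ± 0.41 and -2.53 ± 0.40, and in mixed than in basal aggregates by -2.10 ± 0.40 and -1.66 ± 0.38. Mixed and luminal libraries overlapped for both genes. The call between mixed and basal aggregates ended without basal 3 for Adamts2 (adjusted p = 0.05) and without mixed 1, basal 1 or basal 3 for Adamts7 (adjusted p of 0.056 to 0.075). With the column-name series as a term it ended for both, at -1.73 (adjusted p = 0.096) and -1.03 (adjusted p = 0.3).

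Adamts5, the main aggrecanase of mouse cartilage, and Adamts20, known for its part in melanoblast survival in mice, had another pattern, in which mixed libraries overlapped basal ones. Adamts20 stood at 5.72, 4.12 and 7.45 CPM in mixed libraries, 0.162, 0 and 0.186 CPM in luminal libraries and 9.27, 6 and 10.4 CPM in basal libraries. It differed by -6.12 ± 0.72 in luminal against basal (adjusted p = 6.3e-05) and by 5.55 ± 0.71 in mixed against luminal aggregates (adjusted p = 0.00026). In mixed against basal aggregates, where libraries overlapped, it differed by -0.57 ± 0.52 (adjusted p = 0.5). Luminal libraries held 3, 0 and 3 counts of Adamts20, at or below the floor of 3 counts, so the size of both luminal differences is uncertain. The mixed against luminal call of Adamts20 ended with the column-name series as a term (5.81, adjusted p = 0.065). Adamts5 stood at 14.4, 6.27 and 20.2 CPM in mixed libraries, 2.21, 4.33 and 2.11 CPM in luminal libraries and 15.5, 25.8 and 16.5 CPM in basal libraries. Its log2 difference was -2.74 ± 0.47 in luminal against basal (adjusted p = 0.001), 2.24 ± 0.46 in mixed against luminal (adjusted p = 0.0051) and -0.50 ± 0.43 in mixed against basal aggregates (adjusted p = 0.47). The mixed against luminal difference became 1.93 (adjusted p = 0.46) with the column-name series as a term. Adamts3, a procollagen II N-proteinase, stood at 5.35 to 14.3 CPM in mixed, 2.05 to 4.66 CPM in luminal and 2.97 to 9.57 CPM in basal libraries and was higher in mixed than in luminal aggregates by 1.70 ± 0.55 (adjusted p = 0.038). That call ended without mixed 1 or 3, luminal 1 or 2, or basal 3 (adjusted p of 0.055 to 0.13). It also ended with the column-name series as a term (3.80, adjusted p = 0.12).

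**Figure D3:**
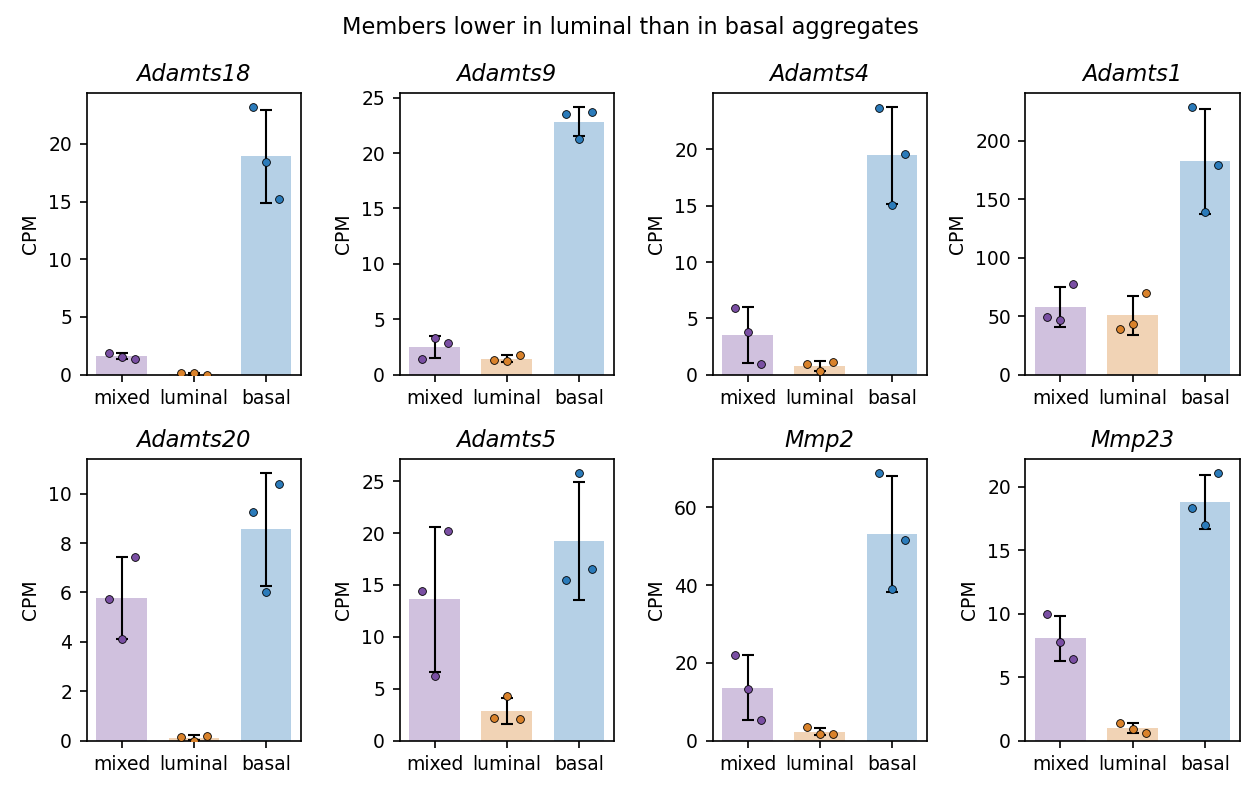
CPM (vertical axes, each from 0) of 8 members that were lower in luminal than in basal aggregates, in mixed, luminal and basal aggregates. Points are libraries, bars the mean and error bars the SD (n = 3). Mixed libraries overlap luminal ones for Adamts9, Adamts4 and Adamts1, overlap basal ones for Adamts20 and Adamts5, and lie between both for Adamts18, Mmp2 and Mmp23.

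Among the ADAMs, Adam12 had by far its highest level in mixed aggregates. Adam12, a meltrin that in mice is expressed in mesenchyme and sheds ligands of the epidermal growth factor receptor, stood at 27.3, 32.6 and 30.8 CPM in mixed libraries, 0.539, 0.0593 and 0 CPM in luminal libraries and 4.51, 4.46 and 6.95 CPM in basal libraries. The groups did not overlap, and every mixed library was far above every library of unmixed cells. Luminal libraries held only 10, 1 and 0 counts of Adam12. Adam12 was higher in mixed than in basal aggregates by 2.51 ± 0.51 (adjusted p = 0.0094) and higher in mixed than in luminal aggregates by 7.13 ± 0.69 (adjusted p = 3.4e-05). Its luminal against basal difference was -4.62 ± 0.67 (adjusted p = 0.00031). With the column-name series as a term the differences were 2.76 (adjusted p = 0.015), 6.15 (adjusted p = 0.0043) and -3.39 (adjusted p = 0.0044), all still called. The mixed mean of 30.2 CPM was 1100% of the average of the luminal and basal group means, 2.75 CPM. Of 5 tested leukocyte markers, Lyz2, Cd74 and Fcer1g were also higher in mixed than in luminal aggregates, and Cd68 was lower. In basal 2, where Cd74 stood at 27.3 CPM and Lyz2 at 15.4 CPM, Adam12 stood at 4.46 CPM. The part of leukocyte transcripts in the level of Adam12 was not tested.

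No member was called as lying outside both unmixed groups in mixed aggregates when the larger of its mixed p-values was adjusted by edgeR's test over all genes, among which 0.0886% were called (0.0499% above and 0.0388% below). At an unadjusted p under 0.05 there were 7 such members, a count that was not compared with the share over all genes. Adam12 had the lowest adjusted p of the members, 0.12. DESeq2 called 1 member, Adam12 (adjusted p = 4.5e-07), against 3.45% of all genes, and limma-voom called 1, Adam12 (adjusted p = 0.012), against 0.183% of all genes. Without a filter beyond 1 count, 4 were called, Adam12, Adam8, Adamts8 and Timp3, against 2.62% of all genes. Without basal 2 edgeR called 2, Adam12 and Adamts8, against 6.60% of all genes, and without luminal 1 it called Adam12 (adjusted p = 0.033).

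Adamts8, an ADAMTS enzyme reported to inhibit vessel growth, was also highest in mixed aggregates, at 21.7, 17.8 and 29.0 CPM, against 6.68, 13 and 6.65 CPM in luminal libraries and 7.34, 2.42 and 6.49 CPM in basal libraries. Luminal and basal libraries overlapped, and all mixed libraries were above both. On the log2 scale it differed by 2.07 ± 0.44 in mixed against basal (adjusted p = 0.011) and 1.38 ± 0.43 in mixed against luminal aggregates (adjusted p = 0.032). The second call ended without mixed 1, mixed 3, luminal 1 or luminal 3 (adjusted p of 0.063 to 0.12). It also ended with the column-name series as a term (3.28, adjusted p = 0.054). Of its exon bases 10.6% are shared with Gm29724.

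Of the 19 members called between luminal and basal aggregates, 17 had a mixed mean between the luminal and the basal mean and 2, Adam12 and Timp3, had a mixed mean above both. The share over all genes called in that contrast was not determined, so the count does not set the members apart. Set against the average of the luminal and basal means, the mixed mean was 16.7% for Adamts18, 20.8% for Adamts9, 34.9% for Adamts4, 48.9% for Mmp2 and 49.5% for Adamts1. It was 81.5% for Mmp23, 83.0% for Timp2, 123% for Adamts5, 133% for Adamts20 and 237% for Timp3. These percentages are a description, and RNA per cell of the cell types is not known.

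**Figure D4:**
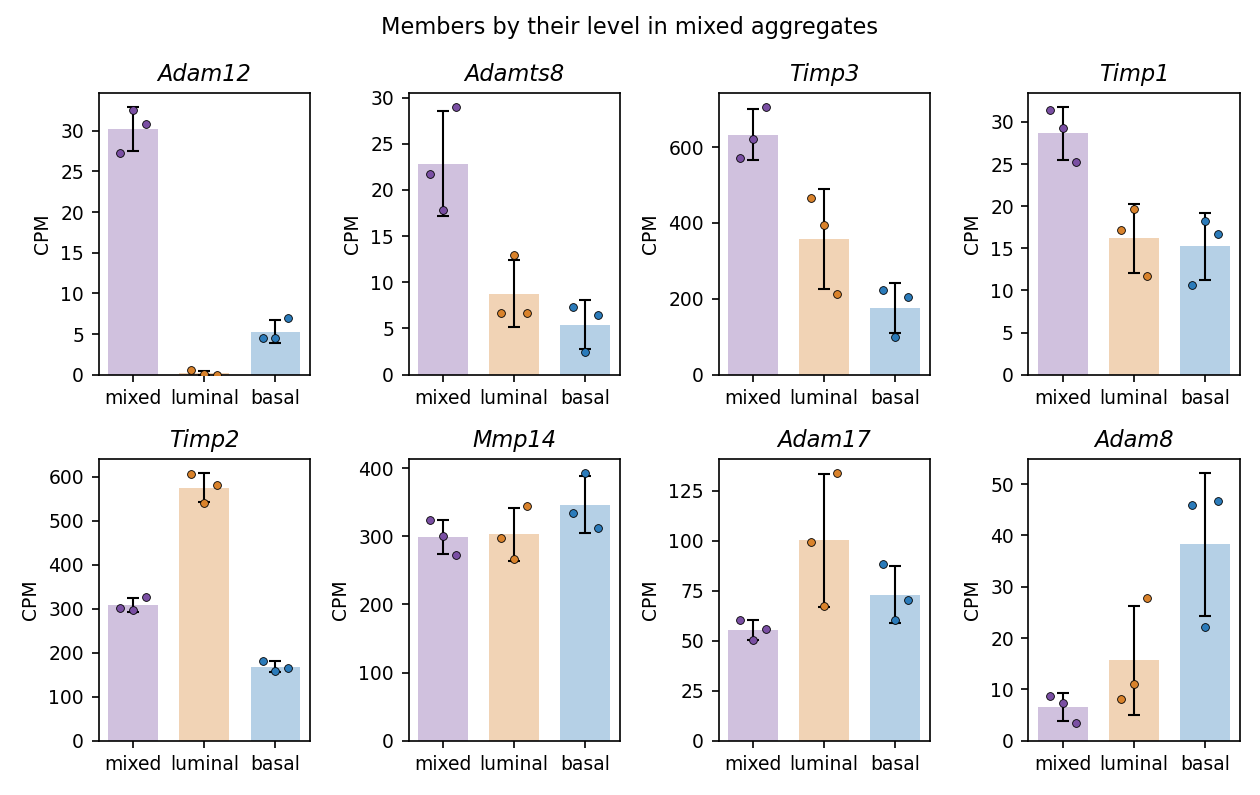
CPM (vertical axes, each from 0) of 8 members in mixed, luminal and basal aggregates. Points are libraries, bars the mean and error bars the SD (n = 3). Mixed libraries are above all others for Adam12, Adamts8, Timp3 and Timp1, between the others for Timp2, and overlap both for Mmp14.

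The sheddase genes Adam10 and Adam17, whose products release Notch and epidermal growth factor family proteins, were expressed in every library. Adam10 stood at 200, 229 and 227 CPM in mixed libraries, 246, 170 and 314 CPM in luminal libraries and 167, 139 and 119 CPM in basal libraries. It was higher in luminal than in basal aggregates by 0.78 ± 0.22 (adjusted p = 0.023), a call that ended without luminal 1, luminal 3 or basal 3 (adjusted p of 0.062 to 0.11) and with the column-name series as a term (0.78, adjusted p = 0.18). Adam17 stood at 60.3, 50.5 and 55.7 CPM in mixed libraries, 99.3, 67.3 and 134 CPM in luminal libraries and 88.5, 60.2 and 70.6 CPM in basal libraries. It was lower in mixed than in luminal aggregates by a log2 difference of -0.85 ± 0.24 (adjusted p = 0.022), and did not pass between luminal and basal aggregates (0.45 ± 0.24, adjusted p = 0.19). The call ended without mixed 2, mixed 3, luminal 1 or luminal 3 (adjusted p of 0.056 to 0.098) and with the column-name series as a term (-0.44, adjusted p = 0.83).

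Adam9, a membrane protease with several reported substrates, stood at 98.3, 100 and 89.3 CPM in mixed libraries, 138, 75.7 and 146 CPM in luminal libraries and 61.5, 52.6 and 50.5 CPM in basal libraries. It was higher in luminal than in basal aggregates by 1.13 ± 0.23 (adjusted p = 0.0032) and in mixed than in basal aggregates by 0.81 ± 0.23 (adjusted p = 0.038). The second call ended without any single mixed library, without luminal 1, basal 1 or basal 3 (adjusted p of 0.051 to 0.15). It also ended with the column-name series as a term (0.87, adjusted p = 0.21). Adam8, a protease best known from leukocytes, stood at 8.80, 7.25 and 3.54 CPM in mixed libraries, 8.09, 11.1 and 27.8 CPM in luminal libraries and 45.9, 22.2 and 46.7 CPM in basal libraries. It was lower in mixed than in basal aggregates by a log2 difference of -2.55 ± 0.50 (adjusted p = 0.0079, and 0.099 with the column-name series as a term). Among luminal libraries, luminal 3 had the highest Adam8 and the highest Cd68 (50.1 CPM), and among basal libraries, basal 2 had the lowest Adam8 and the highest Lyz2 (15.4 CPM). The part of leukocyte transcripts in the levels of Adam8 was not tested. Adam19, a meltrin expressed in mesenchyme and nerve, had 2, 10 and 58 counts in mixed libraries, no count in luminal libraries and 48, 28 and 27 counts in basal libraries. With 3 counts per library as the floor, it was at least 10.5-fold lower in luminal than in basal aggregates (adjusted p = 0.0086) and at least 7.39-fold higher in mixed than in luminal aggregates (adjusted p = 0.014). The last value rests on mixed 3, without which it is at least 2.08-fold (adjusted p = 0.035), and mixed 1 was itself below 3 counts. Both calls ended with the column-name series as a term (adjusted p = 0.15 and 0.44).

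**Figure D5:**
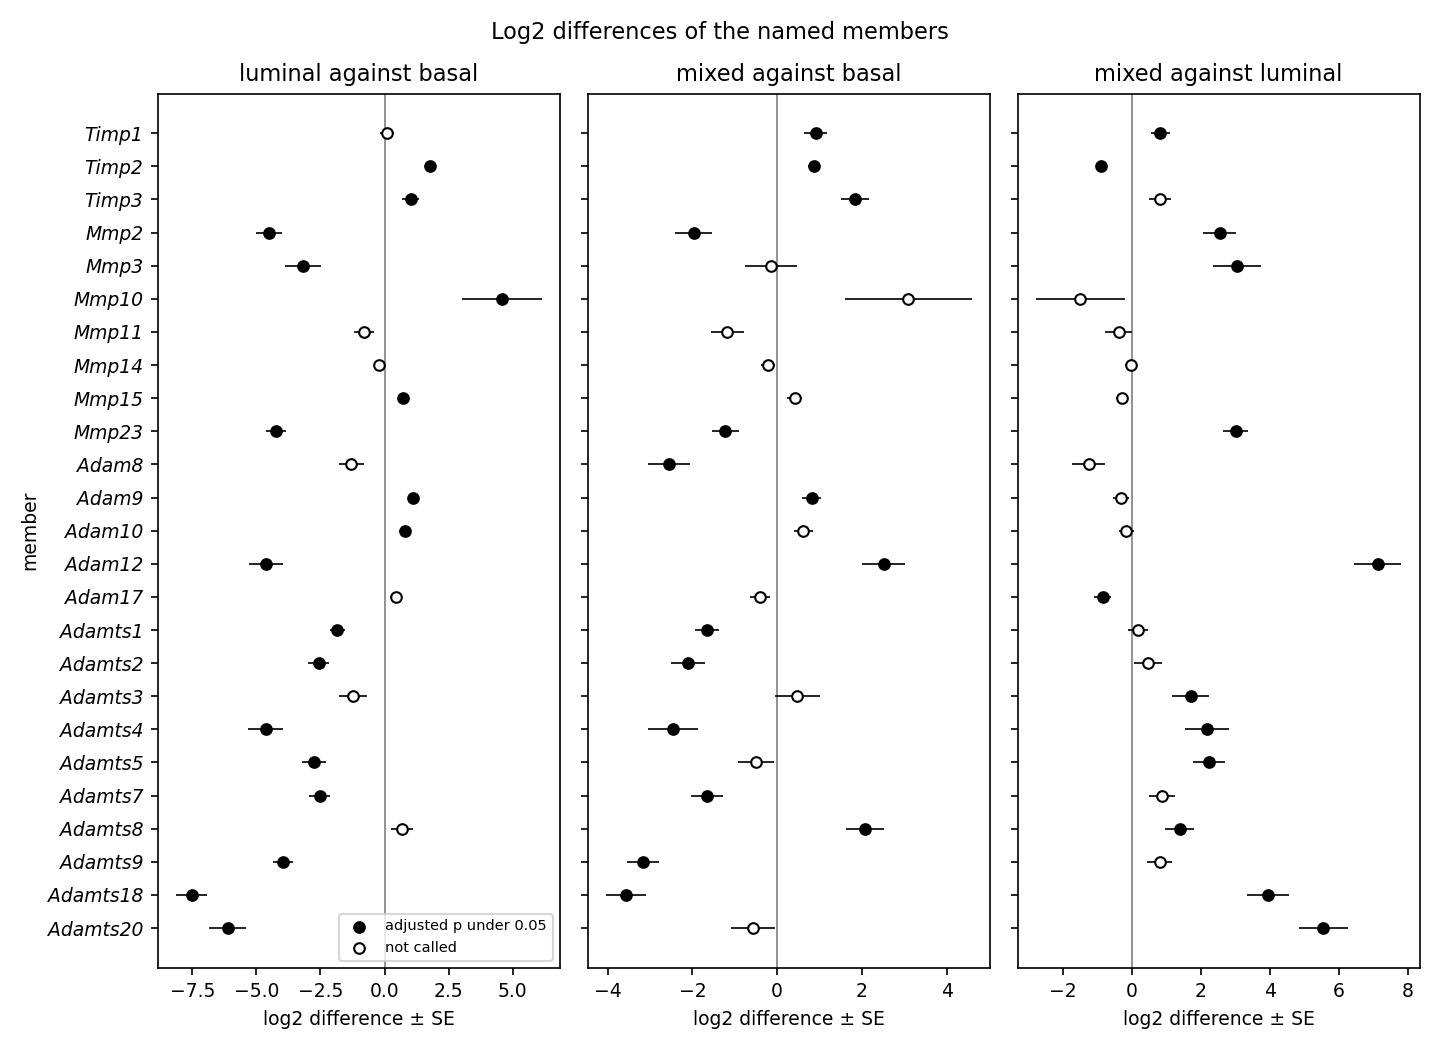
Log2 differences (horizontal axes) with their SE for the named members, in luminal against basal, mixed against basal and mixed against luminal aggregates. Filled points have an adjusted p under 0.05 in edgeR's quasi-likelihood test. Adam12 is negative in luminal against basal and positive in both mixed contrasts, and Adam19 and Mmp13, with libraries at or near no count, are not drawn. Adamts18, Adamts20, Adam12 and Mmp10 are drawn, although each also had a library at no count.

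Genes that act on the members or are cut by them were measured beside them. Of 4 convertases, which remove the inhibitory part of the zymogens, 2 were higher and 1 lower in luminal aggregates relative to basal ones. Furin and Pcsk6 differed by 0.68 ± 0.19 and 1.06 ± 0.32 and Pcsk5 by -4.10 ± 0.72. Of 8 tested partners of the sheddases, which carry ADAM10 or ADAM17 to the surface, 4 were higher and none lower in luminal aggregates relative to basal ones, 3 were higher in mixed than in basal aggregates, and all 8 were lower in mixed than in luminal aggregates. Tspan15, a tetraspanin partner of ADAM10, stood at 60.9, 63.5 and 58.8 CPM in mixed libraries, 212, 175 and 242 CPM in luminal libraries and 20.7, 16 and 21.2 CPM in basal libraries. Its log2 difference was 3.44 ± 0.19 in luminal against basal (adjusted p = 3.2e-07) and -1.78 ± 0.18 in mixed against luminal aggregates (adjusted p = 4.0e-05). Tspan33 differed by 3.37 ± 0.31 in luminal against basal aggregates. These shares stand beside 27.1%, 13.7% and 29.4% of all genes called in the same contrasts.

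Of 19 substrates of the sheddases, 8 were higher and 5 lower in luminal aggregates relative to basal ones, with a median log2 difference of 0.27. In that contrast 12.8% of all genes were higher and 14.4% lower. Hbegf and Epgn, ligands of the epidermal growth factor receptor, were higher by 3.60 ± 0.40 and 3.08 ± 0.63, and the cadherin gene Cdh3 and the neuregulin gene Nrg1 differed by -4.47 ± 0.25 and -4.28 ± 0.60. Of 15 tested matrix substrates, 11 were lower and none higher in luminal than in basal aggregates, 4 were lower in mixed aggregates relative to basal ones, and 8 were higher and none lower in mixed than in luminal aggregates. Among all tested genes, 14.4% were lower in the first of these contrasts, 7.33% lower in the second and 15.2% higher in the last. Vcan, versican, a substrate of ADAMTS1, ADAMTS4, ADAMTS5 and ADAMTS9, stood at 24.4, 26.8 and 34.0 CPM in mixed libraries, 3.83, 2.19 and 2.30 CPM in luminal libraries and 87.6, 121 and 74.4 CPM in basal libraries. Versican differed by -5.08 ± 0.30 in luminal against basal (adjusted p = 4.5e-07) and -1.73 ± 0.25 in mixed against basal aggregates (adjusted p = 0.0014). Fbn1, the microfibril gene fibrillin-1, differed by -5.71 ± 0.52 in luminal against basal aggregates.

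Of 5 tested inhibitors and regulators other than TIMPs, 1 was higher and 3 lower in luminal aggregates relative to basal ones. In this contrast 12.8% of all genes were higher and 14.4% lower, beside which each list of this paragraph stands. Bsg, known as an inducer of MMPs, was higher by 1.15 ± 0.20. The matrix protein gene Sparc differed by -7.70 ± 0.63 and the proteoglycan gene Spock2 by -4.91 ± 0.75. Reck, a membrane inhibitor of several MMPs and of ADAM10, differed by 0.52 ± 0.38 in luminal against basal aggregates (adjusted p = 0.36) and was lower in mixed than in luminal aggregates by a log2 difference of -1.17 ± 0.38 (adjusted p = 0.041). Of 6 tested ADAMTS-like genes, whose proteins lack the protease part, 2 were higher and 2 lower in luminal aggregates relative to basal ones. Thsd4 and Papln differed by 2.63 ± 0.32 and 1.49 ± 0.42, and Adamtsl5 and Adamtsl3 by -3.76 ± 0.55 and -3.09 ± 0.53. Of 9 other tested zinc metalloproteases, 3 were higher and 3 lower in the same contrast. Anpep, aminopeptidase N, differed by 2.11 ± 0.30, the carboxypeptidase gene Cpm by 1.27 ± 0.42, the procollagen C-proteinase gene Bmp1 by -1.03 ± 0.18 and Ece1 by -0.64 ± 0.20.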

How the data were processed

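RNA of 9 mouse libraries was prepared with a stranded mRNA kit. The deposited values are raw counts of read pairs over the exons of each gene name, made by the authors with featureCounts 2.0.1 per the file headers. The submitters' processing notes name Trim Galore, Subread and the build mm39. Strand was not used in counting, so reads of overlapping genes on opposite strands cannot be told apart, and the annotation release is not given in the sources used here.

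The fit used edgeR 4.0.16 in R 4.3.3. Genes passed filterByExpr, libraries were scaled by TMM, and 9 libraries were fitted with 3 groups as a factor, leaving 6 residual degrees of freedom. Each of 3 contrasts was given edgeR's two-sided, robust quasi-likelihood test, adjusted after Benjamini and Hochberg over 18051 genes, with a threshold of 0.05. The SE is the log2 difference divided by the square root of F. TPM used the deposited exon lengths. A gene with no count in a group is given against a floor of 3 counts per library.

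Alternatives were DESeq2 1.42.0, limma-voom (limma 3.58.1), other scalings and filters, a fit without the third group, a replicate block by title number, the column-name series as a term, and each library left out in turn. The title numbers were used, since the descriptions number the libraries differently.

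The members and lists were chosen with earlier results of these data known. Named members were all TIMPs, called members with a group mean of at least 1 CPM, the 5 highest by TPM in each group, a fixed set of 11, and up to 2 rises and 2 falls per list of related genes. Protein sequences were not used here.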

Additional observations from a re-analysis of the deposited data

How the results depend on the processing

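The 49 calls of named members over the 3 contrasts were counted under each alternative. DESeq2, RLE size factors and no filter beyond 1 count kept 49, a filter of 1 CPM in 3 libraries 48, limma-voom 47, the library size alone 44 and fits of only the 2 groups compared 44. The column-name series as a term kept 21, and leaving out 1 library kept 38 to 47. The library size alone moved the median gene to -0.17 in luminal against basal and -0.22 in mixed against basal aggregates, and split the calls of that first contrast into 1750 higher and 3249 lower genes, against 2304 and 2595 with TMM.

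Members called outside both unmixed groups numbered 4 with no filter beyond 1 count, 1 with DESeq2, 1 with limma-voom and 0 to 2 when 1 library was left out, against 0. With the column-name series as a term, 6 members were called between mixed and basal, 1 between mixed and luminal aggregates, and 9 genes of the related lists between mixed and luminal aggregates, against 15, 16 and 34. When 1 library was left out, the members called numbered 9 to 17 between mixed and basal aggregates, against 5.09% to 27.0% of all genes. The cause of these changes was not tested.

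Uncalled values that changed sign under an alternative were small or imprecise. With the column-name series as a term, Adamts8 stood at -0.05 in luminal against basal aggregates, and in mixed against luminal aggregates Adam8 stood at 0.75, Mmp10 at 5.05, Mmp11 at 0.30 and Mmp15 at 0.12. Timp1 in luminal against basal aggregates stood at -0.04 with the library size alone and between -0.07 and 0.27 when 1 library was left out. Mmp14 in mixed against luminal aggregates stood at 0.01 with only the 2 groups compared and between -0.11 and 0.08 when 1 library was left out. With 1 library left out, Mmp3 stood between -0.77 and 0.07 and Adam19 between -2.34 and 0.03 in mixed against basal aggregates, and Adamts1 between -0.09 and 0.48 and Adam10 between -0.37 and 0.06 in mixed against luminal aggregates.

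Same-numbered libraries correlated at r = -0.17 to 0.20, and 4 of 9 correlated best with their own number, so the title numbers gave no sign of pairing. The replicate block gave 18, 14, 14 and 0 members called, against 19, 15, 16 and 0. Of all genes, 25.2%, 11.8%, 27.7% and 0.0499% were called in that fit. The calls of Mmp10 in luminal against basal (5.26, adjusted p = 0.059), Timp1 in mixed against basal (0.92, adjusted p = 0.057) and Adamts8 in mixed against luminal aggregates (1.32, adjusted p = 0.061) ended there. Members below 1 CPM rest on few counts, and differences there were not detectable at this depth unless large.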

Other observations

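The 23 members with counts that stayed below the filter held few reads, and most were seen in a minority of libraries. Adam33 had 28, 0 and 0 counts in mixed libraries, 9, 24 and 8 counts in luminal libraries and 1, 0 and 2 counts in basal libraries. Mmp12, the macrophage elastase gene, had 2, 6 and 4 counts in mixed libraries, 0, 0 and 12 counts in luminal libraries and 1, 0 and 0 counts in basal libraries. Mmp7, matrilysin, had 8, 0 and 0 counts in mixed libraries, 0, 6 and 0 counts in luminal libraries and 3, 11 and 0 counts in basal libraries. No comparison was made for these genes, which were chosen after their values were seen.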
